A study of Mus musculus with 12 samples.

Results

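The homeostatic microglia identity genes are 36 genes linked to resting microglia, some of them, such as Spi1 and Cd53, shared with other macrophages or leukocytes. They include transcription factors and the TGF-beta receptors that are known to set microglial identity. Their probes were found by name, as those whose accession maps through RefSeq to a listed gene, and the list was drawn up with earlier results of these data known. All 36 had a probe on the array, and 34 were measured, of 19801 genes tested in all. Crybb1, a crystallin known from immature microglia, and Upk1b, a uroplakin, were not well above background on any of the 12 arrays, and no level is given for them.

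Expression was measured on Agilent 4x44K one-colour arrays in primary microglia of neonatal C57BL/6 mice, shaken off mixed glial cultures. Microglia received supernatant of Th1 cells (4 arrays), supernatant of Th17 cells (4 arrays) or, as the untreated group, T cell medium (4 arrays), and RNA was taken at 16 h. Each group has 1 array from each of 4 independent experiments, numbered 12, 13, 14 and 16, and the arrays are named here by treatment and experiment number. Th1 and Th17 cells are the T helper cell types that make interferon-gamma and interleukin-17. The methods name no transgene or deletion in any group. The cells are newborn microglia kept in serum-containing medium and not adult microglia in the brain, and the supernatants are mixtures of many T cell products. How the Th17 cells were raised is not given in the sources used here.

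Resting microglia depend on signalling through the CSF1 receptor for survival and on TGF-beta from their surroundings for their identity. TGF-beta binds the type II receptor chain Tgfbr2, which recruits and activates the type I chain Tgfbr1, and the pair phosphorylates Smad2 and Smad3, which enter the nucleus with Smad4. PU.1 (encoded by Spi1), Mef2 proteins and Sall1 act on microglial enhancers, and the surface proteins that they maintain, among them Cx3cr1 and Tmem119, are commonly lost when microglia are placed in culture or activated.

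The arrays were alike in quality. Between 54.5% and 65.0% of the 39429 probes were well above background on each, and no spot was saturated. Of 10 listed microglia and macrophage markers 9 were measured, and their signals summed to 1030000 to 1072000 array units with Th1 supernatant, 1182000 to 1391000 with Th17 supernatant and 1157000 to 1417000 in untreated microglia. With Th1 supernatant 2 of the 9 fell, Trem2 and Cd14, and 2 rose. Gfap, the defining astrocyte marker, stayed between 15.9 and 198 units, and S100b between 15 and 119 units, on all 12 arrays, while the sum of 7 measured astrocyte markers was 4185 to 5780 units with Th1 supernatant, 4113 to 11900 with Th17 supernatant and 4946 to 12020 in untreated microglia, most of it from Aldoc, Aldh1l1 and Fabp7. Markers of border macrophages, of which 4 of 6 were measured, summed to 63950 to 110400 units with Th1 supernatant, 190700 to 290000 with Th17 supernatant and 195500 to 266600 in untreated microglia. Endothelial markers (3 of 5 measured) summed to 4204 to 7839 units with Th1 supernatant, 368.1 to 1181 with Th17 supernatant and 323.7 to 1195 in untreated microglia, most of it Vwf. Monocyte and granulocyte markers (3 of 6 measured) summed to 4033 to 7576 units with Th1 supernatant, 5898 to 11170 with Th17 supernatant and 8263 to 10590 in untreated microglia. The part of other cells in the members' values was not tested. The array untreated 14 stood apart in markers of some other cells: oligodendrocyte markers summed to 32690 there, against 16310 to 17960 on the other untreated arrays, neuronal markers to 16160, against 6096 to 10270, and fibroblast and mural markers to 1064, against 188.4 to 265.8.

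With Th1 supernatant, Cx3cr1 fell furthest of the identity genes, 79.5-fold, and Rnase4, Olfml3, Fcrls and Tmem119 fell between 4.89-fold and 9.31-fold. Spi1 and the brightest probe of Csf1r stayed within 2-fold of untreated microglia. Of the 34 measured members, 11 fell and 2 rose in Th1-treated against untreated microglia, by limma over all genes with a Benjamini-Hochberg adjusted p under 0.01 and a change over 2-fold. That is 32.4% of the members down and 5.88% up, while 7.88% of all genes fell and 7.49% rose. On a list of other microglia genes with 47 measured, 12 fell (25.5%) and 11 rose (23.4%), with a median log2 fold change of 0.04. The members that fell were Cx3cr1, Rnase4, Olfml3, Fcrls, Tmem119, Mef2c, Tgfbr1, Gpr34, Stab1, Bhlhe41 and Ltc4s, and those that rose were Lpcat2 and Aif1. The median log2 fold change was -0.65 over the members and -0.06 over all genes tested, and without the array untreated 14 the members' median was -0.38. In these RNA pools, fewer cells with a transcript and less of it per cell cannot be told apart.

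**Figure D1:**
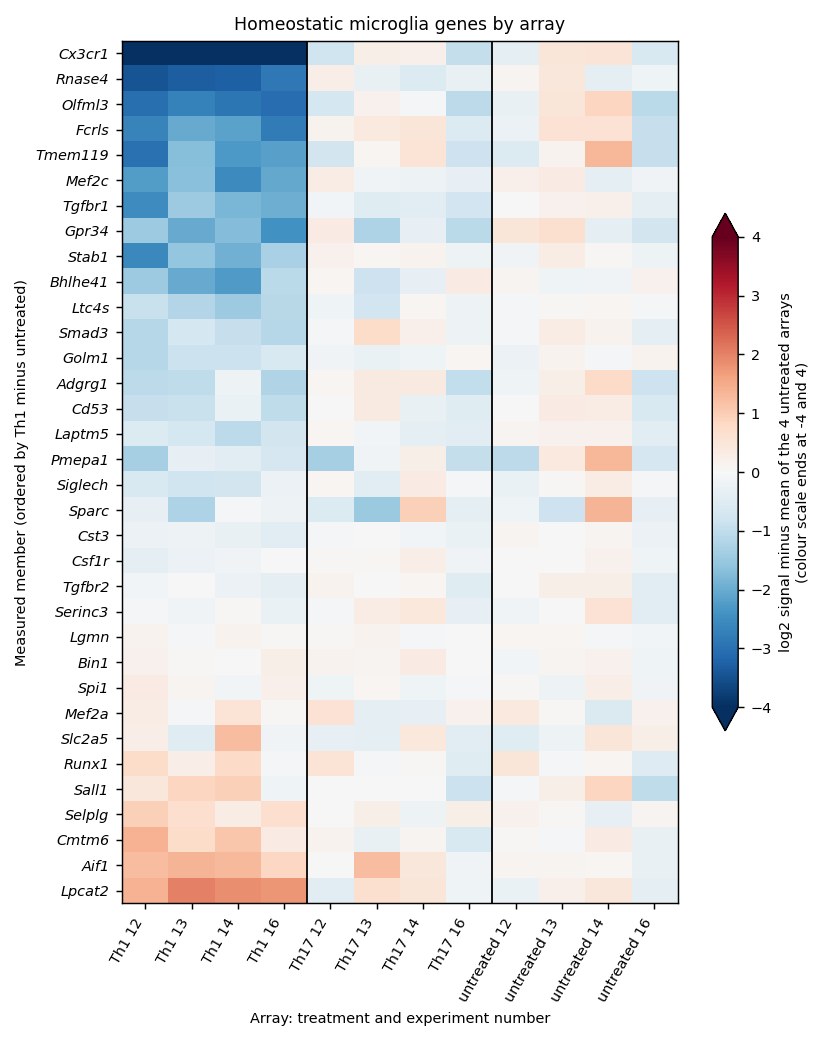
Log2 signal of the 34 measured members (rows) on each of the 12 arrays (columns; Th1, Th17, untreated) minus the mean of the 4 untreated arrays, with blue for lower and red for higher. The top rows are blue on all 4 Th1 arrays and pale on the Th17 and untreated arrays, and Cx3cr1 lies beyond the end of the colour scale on the Th1 arrays.

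The arrays lay on 3 slides. For all 13 called members the Th1 and untreated arrays did not overlap. These members were called on the same arrays, so the lack of overlap is no separate check of the calls. Over all measured members, 17 did not overlap and 17 did, and the share over all genes is not given here. Without overlap, the difference of a called member had to keep its sign within each slide, which makes the slides no separate check either. Of the 21 members not called, 10 had a 95% confidence interval inside the 2-fold range in both directions, and these are described as within 2-fold. The other 11 had intervals that reach past 2-fold on at least 1 side, so a change of that size is not settled for them. With same-numbered experiments paired, the intervals of Sall1, Runx1, Selplg and Sparc also lay inside 2-fold, which made 14 members. In the fit without pairing, 4 of the 11 passed the adjusted p but not the 2-fold limit. Smad3, Golm1 and Laptm5 were lower and Selplg was higher in Th1-treated microglia. With pairing, Runx1, Cmtm6, Cd53 and Adgrg1 of the 11 also passed the adjusted p but not the 2-fold limit.

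**Figure D2:**
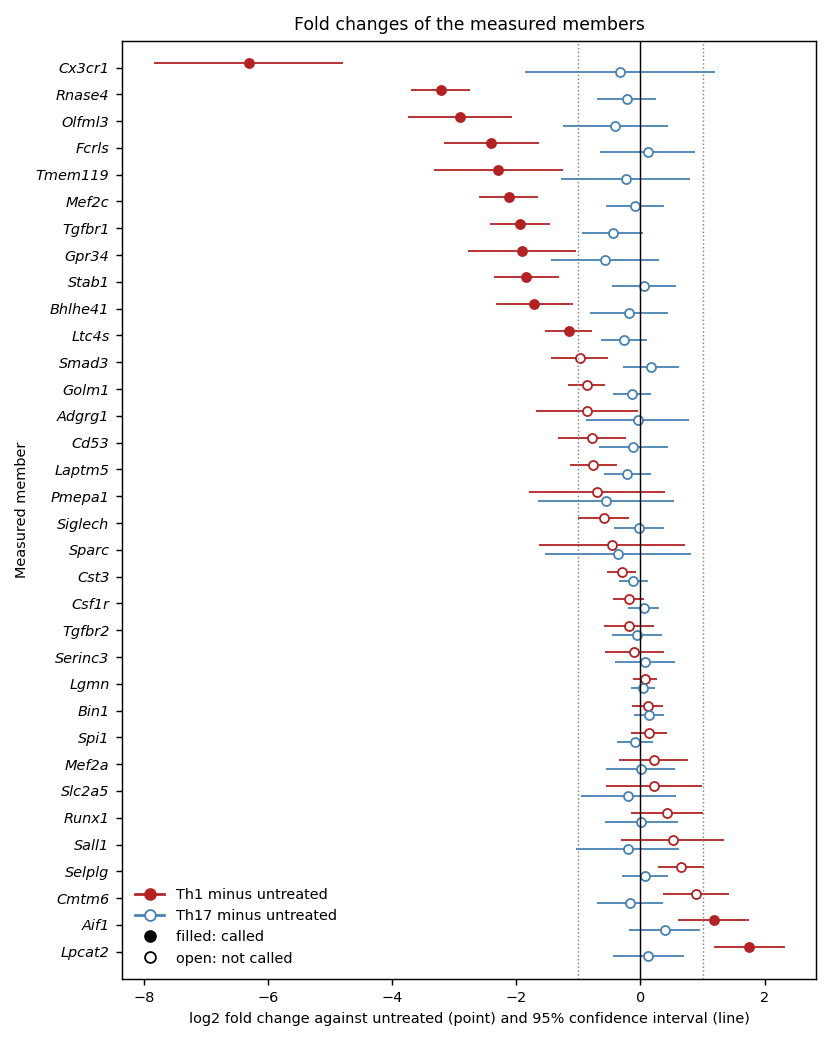
Log2 fold change against untreated microglia (x axis) of the 34 measured members (y axis) for Th1 (red) and Th17 (blue) supernatant, with 95% confidence intervals; filled points were called, and dotted lines mark 2-fold. All 13 filled points are red, 11 left of the lower dotted line and 2 right of the upper one, and no Th17 point is filled.

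The DNA before the start sites of the members with the largest changes is printed here, since the factors that set microglial identity act through short motifs in such regions. The runs hold 250 bases before and 50 bases after the annotated start, from RefSeq on GRCm38.p6, for the 3 members that fell furthest and the 2 that rose. Cx3cr1 lies at chr9:120068247-120068546 on the minus strand, Olfml3 at chr3:103737952-103738251 on the minus strand, Lpcat2 at chr8:92855083-92855382 on the plus strand and Aif1 at chr17:35176003-35176302 on the minus strand. Rnase4 has 2 annotated starts, at chr14:51090827-51091126 and chr14:51095750-51096049, both on the plus strand. Capitals mark the motifs searched on both strands: GAGGAAGT for PU.1, the MEF2 consensus, CAGAC for the SMAD box and GAAANNGAA for the interferon response half-site.
Cx3cr1: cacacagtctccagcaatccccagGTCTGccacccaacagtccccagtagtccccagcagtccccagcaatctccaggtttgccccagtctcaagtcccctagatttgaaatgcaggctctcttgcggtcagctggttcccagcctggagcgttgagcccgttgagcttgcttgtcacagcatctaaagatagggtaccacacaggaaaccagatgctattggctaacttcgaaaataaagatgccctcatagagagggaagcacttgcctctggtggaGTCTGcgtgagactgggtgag
Rnase4, upstream start: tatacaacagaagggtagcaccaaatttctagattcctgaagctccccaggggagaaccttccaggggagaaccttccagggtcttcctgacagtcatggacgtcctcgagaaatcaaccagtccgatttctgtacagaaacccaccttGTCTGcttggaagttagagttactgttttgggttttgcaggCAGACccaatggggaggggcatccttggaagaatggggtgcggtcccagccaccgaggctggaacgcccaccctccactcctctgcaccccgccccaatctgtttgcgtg
Rnase4, downstream start: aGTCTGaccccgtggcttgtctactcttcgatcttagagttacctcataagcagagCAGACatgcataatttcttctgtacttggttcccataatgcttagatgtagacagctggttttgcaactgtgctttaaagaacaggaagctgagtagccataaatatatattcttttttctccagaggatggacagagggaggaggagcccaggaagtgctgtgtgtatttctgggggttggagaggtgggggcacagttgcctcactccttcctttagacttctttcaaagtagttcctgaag
Olfml3: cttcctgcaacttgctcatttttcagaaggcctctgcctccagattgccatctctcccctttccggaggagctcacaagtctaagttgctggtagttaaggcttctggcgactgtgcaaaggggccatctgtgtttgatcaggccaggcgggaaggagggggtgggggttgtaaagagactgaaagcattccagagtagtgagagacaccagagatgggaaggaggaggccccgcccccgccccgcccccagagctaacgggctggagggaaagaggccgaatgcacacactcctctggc
Lpcat2: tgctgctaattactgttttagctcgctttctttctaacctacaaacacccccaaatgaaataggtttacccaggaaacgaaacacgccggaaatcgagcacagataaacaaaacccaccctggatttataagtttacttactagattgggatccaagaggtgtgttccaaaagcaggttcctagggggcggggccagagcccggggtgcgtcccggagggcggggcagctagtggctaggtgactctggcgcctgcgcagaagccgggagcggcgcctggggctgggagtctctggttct
Aif1: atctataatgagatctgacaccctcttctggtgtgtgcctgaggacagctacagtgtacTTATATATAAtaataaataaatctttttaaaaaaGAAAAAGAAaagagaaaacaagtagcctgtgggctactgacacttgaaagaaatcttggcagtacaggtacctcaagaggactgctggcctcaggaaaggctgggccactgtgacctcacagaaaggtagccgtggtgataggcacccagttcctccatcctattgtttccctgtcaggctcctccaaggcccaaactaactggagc

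Cx3cr1 held 2 SMAD boxes in this window, each Rnase4 start held 2, and Olfml3 and Lpcat2 held none of these motifs. Aif1 held 1 MEF2 consensus and 1 interferon response half-site. Promoter entries were matched for 28 of the 36 members, with 37 starts in all. A SMAD box was present at 26 of those 37 starts, or 70.3%, and at 49.6% of the 32851 starts in the table. It was present at 11 of the 13 starts of the members that fell, but not at that of Olfml3. Those 11 starts belong to Bhlhe41, Cx3cr1, Fcrls, Ltc4s, Mef2c, Rnase4, Stab1 and Tgfbr1, and a gene with more than 1 start counts more than once. The other motifs were rare: PU.1 at 1 member start (2.7%, against 3.2% of all starts), the MEF2 consensus at 2 (5.41%, against 3.19%) and the interferon half-site at 1 (2.7%, against 8.56%). A 5-letter motif is met often by its length alone, and a match is a description of the letters and not a binding site.

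Among the 13 measured receptors and surface proteins, 5 fell with Th1 supernatant, none was called up, 4 were within 2-fold and 4 were not settled. Cx3cr1, the receptor for the neuronal chemokine fractalkine, had signals of 351, 5670, 1250 and 2540 array units with Th1 supernatant in experiments 12, 13, 14 and 16. With Th17 supernatant they were 72100, 149000, 145000 and 65100 units, and in untreated microglia 96900, 177000, 180000 and 82200 units. Every Th1 array was far below every other array, and experiments 13 and 14 were the highest in both the Th17 and the untreated group. The log2 fold change was -6.31 ± 0.70 (SE, n = 4 arrays each, limma adjusted p = 2.71e-05). It was -8.54, -6.07 and -5.02 within the 3 slides, -5.59 without the array Th1 12 and -6.93 without the array Th1 13.

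Tmem119, a transmembrane protein used to mark microglia, was at 214, 512, 341 and 368 units with Th1 supernatant, at 997, 1770, 2420 and 948 units with Th17 supernatant and at 1150, 1850, 4200 and 875 units in untreated microglia. The Th1 arrays lay below all others, and untreated 14, the array with the highest sums of oligodendrocyte, neuronal and fibroblast markers, was also the highest for Tmem119. The log2 fold change of Tmem119 was -2.29 ± 0.48 (limma adjusted p = 0.00234), and -1.85 without untreated 14. Gpr34, a receptor for lysophosphatidylserine, was at 1600, 1060, 1300 and 812 units with Th1 supernatant, at 5480, 1860, 3500 and 2060 units with Th17 supernatant and at 6100, 6810, 3340 and 2590 units in untreated microglia. It fell by 1.91 ± 0.40 on the log2 scale (limma adjusted p = 0.0023), and its Th17 arrays lay above the Th1 arrays and overlapped with the untreated arrays.

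The scavenger receptors fell together with these. Fcrls, an Fc receptor-like scavenger receptor, was at 9330, 14800, 13500 and 8630 units with Th1 supernatant, at 65400, 78900, 83900 and 40600 units with Th17 supernatant and at 50500, 88500, 89700 and 31700 units in untreated microglia. Fcrls fell by 2.41 ± 0.35 on the log2 scale (limma adjusted p = 0.000208). Stab1, which encodes stabilin-1, was at 13700, 28100, 21900 and 33400 units with Th1 supernatant, at 93700, 87600, 91700 and 71900 units with Th17 supernatant and at 75100, 102000, 84700 and 71200 units in untreated microglia. Stab1 fell by 1.84 ± 0.24 (limma adjusted p = 8.94e-05). For both genes the highest Th1 array stayed below the lowest array of the other groups.

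Csf1r, the receptor for the survival factors CSF1 and IL-34, was at 215000, 236000, 247000 and 271000 units with Th1 supernatant, at 282000, 283000, 331000 and 251000 units with Th17 supernatant and at 276000, 274000, 308000 and 246000 units in untreated microglia. The Th1 and untreated arrays overlapped, and the log2 fold change of this brightest of the 3 Csf1r probes was -0.19, with a 95% interval of -0.44 to 0.06. The dimmer probes gave -0.71 (limma adjusted p = 0.0274) and -0.80 (limma adjusted p = 0.0469), neither called. Siglech, a sialic acid-binding lectin, gave -0.59 (95% interval -1.0 to -0.19), with a second probe not well above background on any array, and Serinc3, a carrier-like membrane protein, -0.10 (-0.58 to 0.38). Slc2a5, the fructose transporter GLUT5, was well above background on only 4 of the 12 arrays, 2 with Th1 supernatant and 2 untreated, and lay between 15 and 49.6 units.

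The 4 surface proteins that were not settled had fold changes of both signs. Selplg, the ligand of P-selectin, gave 0.65 ± 0.17 on the log2 scale (limma adjusted p = 0.00845), with 8600 to 13700 units on the Th1 arrays against 5570 to 7940 units on the untreated arrays, which did not overlap. Cmtm6, which keeps PD-L1 on the cell surface, was at 63900, 40400, 52200 and 30100 units with Th1 supernatant, at 26500, 19700, 26000 and 16000 units with Th17 supernatant and at 25000, 22700, 30400 and 19900 units in untreated microglia. Its log2 fold change of 0.89 ± 0.24 missed the thresholds (limma adjusted p = 0.0112), but it was called without untreated 14 (1.00) or without Th1 16 (1.08). Cd53, a tetraspanin of leukocytes, gave -0.78 ± 0.25 (limma adjusted p = 0.0258). Adgrg1, the adhesion receptor GPR56, gave -0.86 ± 0.38 (limma adjusted p = 0.0856) at low signals of 29.6 to 58.8 units with Th1 supernatant against 38.2 to 115 units in untreated microglia. With same-numbered experiments paired, limma adjusted p-values were 0.000603 for Selplg, 0.00027 for Cmtm6, 0.00816 for Cd53 and 0.00401 for Adgrg1. These 4 changes stayed under 2-fold. The paired interval of Selplg (0.43 to 0.87) lay inside 2-fold, and those of the others still reached past it.

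**Figure D3:**
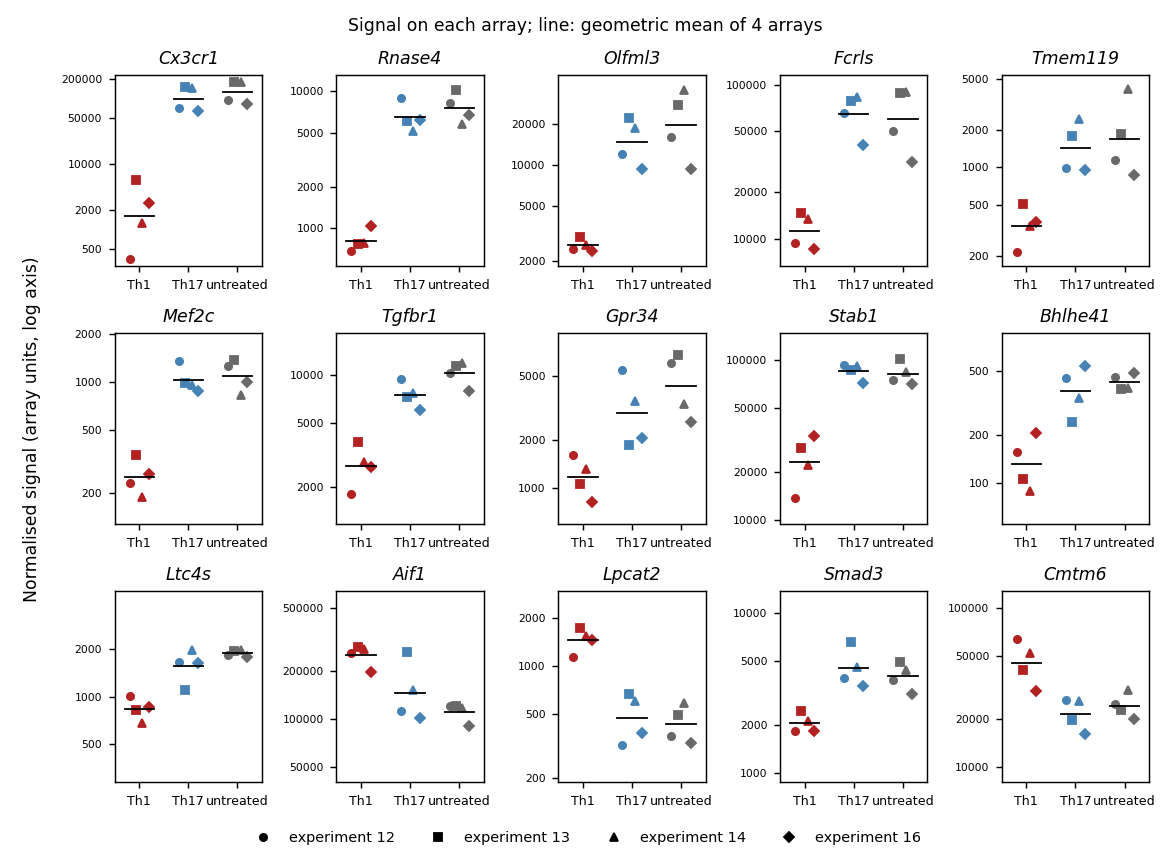
Normalised signal (y axes, array units, logarithmic) of 15 members on each array, with Th1, Th17 and untreated from left to right, a symbol for each experiment and a line at the geometric mean of the 4 arrays. In the panels from Cx3cr1 to Ltc4s the Th1 points lie below all untreated points, in Aif1 and Lpcat2 above them, and Th17 13 lies among the Th1 points in Aif1.

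Among the 6 transcription factors, Mef2c and Bhlhe41 fell, Spi1 and the brightest probe of Mef2a stayed within 2-fold, a dimmer Mef2a probe fell, and Sall1 and Runx1 were not settled. Mef2c, a MADS-box factor that restrains microglial activation, was at 234, 348, 190 and 265 units with Th1 supernatant, at 1360, 992, 967 and 882 units with Th17 supernatant and at 1270, 1380, 833 and 1010 units in untreated microglia. Mef2c fell by 2.12 ± 0.22 on the log2 scale (limma adjusted p = 1.48e-05). Bhlhe41, a basic helix-loop-helix repressor that is also part of the circadian clock, was at 156, 105, 88.9 and 204 units with Th1 supernatant, at 456, 241, 341 and 537 units with Th17 supernatant and at 460, 384, 392 and 487 units in untreated microglia. It fell by 1.71 ± 0.29 on the log2 scale (limma adjusted p = 0.000552), with no Th1 array as high as the lowest of the other groups, and a dimmer probe gave -2.05 (limma adjusted p = 0.0185), not called.

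Spi1, the gene of PU.1 on which the whole macrophage lineage depends, was at 4710, 4000, 3420 and 4320 units with Th1 supernatant, at 3320, 3910, 3290 and 3550 units with Th17 supernatant and at 3860, 3260, 4510 and 3400 units in untreated microglia. The groups overlapped, and the log2 fold change was 0.13, with a 95% interval of -0.16 to 0.42. Sall1, a zinc-finger factor that sets microglia apart from other macrophages, was at 444, 590, 629 and 288 units with Th1 supernatant, at 332, 330, 324 and 179 units with Th17 supernatant and at 312, 379, 584 and 162 units in untreated microglia. It was higher with Th1 supernatant in each of the 4 experiments, but the groups overlapped, and the log2 fold change of 0.52 had a 95% interval of -0.31 to 1.35 (limma adjusted p = 0.289), or 0.16 to 0.88 with same-numbered experiments paired (limma adjusted p = 0.0217). Runx1, a factor of early macrophage development, gave 0.43 (-0.16 to 1.02) with its brightest probe, or 0.21 to 0.65 when paired (limma adjusted p = 0.00547), and -0.21 with another probe.

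Mef2c and Mef2a were also set against each other within each array. The log2 signal of Mef2c minus that of Mef2a lay between -5.55 and -4.09 on the Th1 arrays, between -2.96 and -2.24 on the Th17 arrays and between -2.77 and -2.19 on the untreated arrays, so the Th1 arrays stood apart from all others. Mef2a itself depended on the probe. Its brightest probe gave 0.21 (95% interval -0.34 to 0.77), whereas a dimmer probe, well above background on all 12 arrays, fell by 1.12 ± 0.16 on the log2 scale (limma adjusted p = 0.000174). Which transcripts the probes read was not tested.

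**Figure D4:**
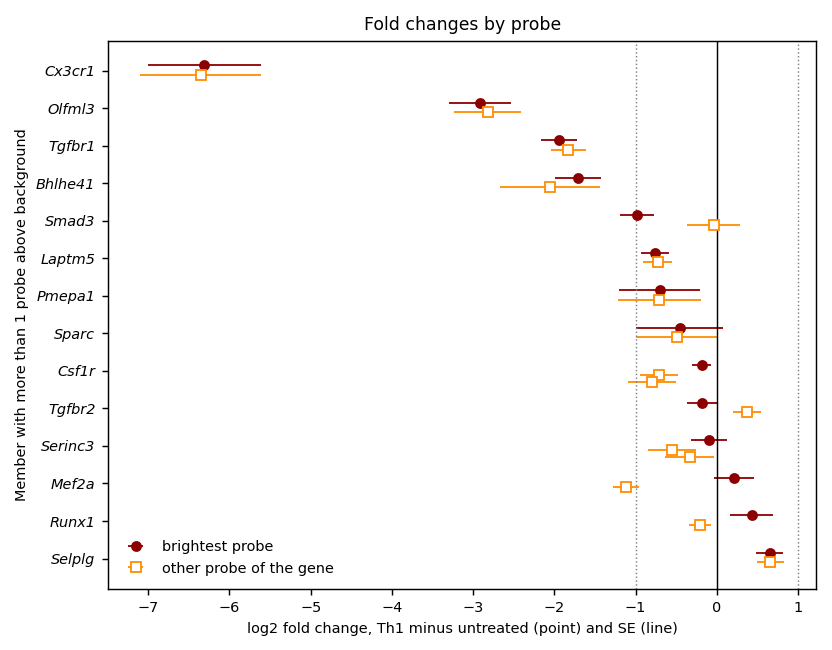
Log2 fold change of Th1-treated against untreated microglia (x axis, with SE) for the 14 members that had more than 1 probe well above background on some array (y axis), with the brightest probe filled and the others open. Of 16 other probes, 14 had the same call as the brightest probe of their gene, and the probes of Mef2a, Runx1 and Tgfbr2 lie on opposite sides of 0.

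Of the TGF-beta receptor chains, Tgfbr1 fell and Tgfbr2 stayed within 2-fold. Tgfbr1, the type I chain, was at 1800, 3790, 2870 and 2650 units with Th1 supernatant, at 9500, 7340, 7730 and 6010 units with Th17 supernatant and at 10300, 11500, 11900 and 7930 units in untreated microglia. Tgfbr1 had a log2 fold change of -1.94 ± 0.22 (limma adjusted p = 3.7e-05), and a dimmer probe gave -1.83. Tgfbr2, the type II chain, was at 32000, 34900, 29500 and 26600 units with Th1 supernatant, at 38200, 35100, 36900 and 24800 units with Th17 supernatant and at 34400, 40800, 41200 and 25300 units in untreated microglia. The Tgfbr2 groups overlapped, with a log2 fold change of -0.19 (95% interval -0.59 to 0.22) and 0.37 with a dimmer probe. Within each array, the log2 signal of Tgfbr1 minus that of Tgfbr2 was -4.15 to -3.20 on the Th1 arrays, -2.26 to -2.01 on the Th17 arrays and -1.82 to -1.67 on the untreated arrays, and these ranges did not overlap. Tgfbr1 alone overlapped between the Th17 and untreated arrays and was not called between them. The difference of the 2 chains was not tested, nor was how many other gene pairs separate the groups.

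Smad3, the signal carrier that the receptor phosphorylates, was at 1830, 2440, 2120 and 1820 units with Th1 supernatant, at 3920, 6620, 4610 and 3500 units with Th17 supernatant and at 3830, 4950, 4440 and 3100 units in untreated microglia. The Th1 arrays lay below all Th17 and untreated arrays, which overlapped with each other. Smad3 had a log2 fold change of -0.98 ± 0.21 (limma adjusted p = 0.00252), just short of 2-fold. It passed the limit without untreated 12 (-1.01), without untreated 16 (-1.11) or without Th1 13 (-1.07), while its dim second probe, at a mean of 38.4 units, gave -0.04. Pmepa1, a TGF-beta target that restrains the pathway, was at 532, 1060, 969 and 834 units with Th1 supernatant, at 536, 1210, 1560 and 682 units with Th17 supernatant and at 641, 1760, 3320 and 841 units in untreated microglia. Its log2 fold change was -0.70 (95% interval -1.79 to 0.39, or -1.25 to -0.145 when paired, limma adjusted p = 0.0368), and experiments 13 and 14 were highest in all 3 groups.

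The rest of the TGF-beta pathway, a list of 32 further genes of which 29 were measured, was mostly not called. With Th1 supernatant 2 fell, 2 rose and 25 were not called, or 6.9% each way, against 7.88% of all genes that fell and 7.49% that rose. The median log2 fold change was -0.22, against -0.06 over all genes. Id3, an inhibitor of helix-loop-helix factors induced by this family, fell by 1.81 ± 0.43 on the log2 scale (limma adjusted p = 0.00541), and Smad7, the inhibitory Smad, by 1.16 ± 0.25 (limma adjusted p = 0.00268), though Th1 14 with 580 units was above untreated 12 with 566 units. Tgfbi, a secreted matrix protein named for its induction by TGF-beta, rose by 1.97 ± 0.32 (limma adjusted p = 0.000453). Acvrl1, the type I receptor ALK1, rose by 1.62 ± 0.10 (limma adjusted p = 3.75e-07), with 11400 to 13800 units on the Th1 arrays against 3830 to 4320 units on the untreated arrays. The partner carriers Smad2 (-0.12, 95% interval -0.33 to 0.10) and Smad4 (-0.11, -0.37 to 0.16) stayed within 2-fold. Nrros, a protein that holds latent TGF-beta at the microglial surface, gave 0.11 (-0.17 to 0.38).

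The list named CSF1 receptor pathway had 15 of 15 genes measured. With Th1 supernatant none fell and 4 rose (26.7%), against 7.88% and 7.49% of all genes. Csf2rb and Socs1, among the 4 that rose, also serve other cytokine receptors, so the share does not stand for CSF1 receptor signalling alone. The median log2 fold change of the list was 0.19, against -0.06. Csf1 itself, a ligand of the receptor, was at 2300, 1370, 1870 and 686 units with Th1 supernatant against 70.6, 92.6, 178 and 212 units in untreated microglia, an 11.3-fold rise (limma adjusted p = 8.17e-05). Csf2rb, the shared chain of the GM-CSF receptor, rose 5.32-fold (limma adjusted p = 1.06e-06), and Pik3cd, a catalytic subunit of PI3-kinase, 2.53-fold (limma adjusted p = 1.95e-06). Socs1, the feedback inhibitor that interferon-gamma induces, was at 42000 to 76800 units with Th1 supernatant against 135 to 471 units in untreated microglia.

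Of 25 other macrophage and microglia transcription factors, all measured, 6 fell, 1 rose and 18 were not called with Th1 supernatant. The shares were 24.0% down and 4.0% up, against 7.88% and 7.49% of all genes, and the median log2 fold change of -0.06 was that of all genes. Ets1 fell 9.21-fold, Cebpa, a factor of myeloid differentiation, 7.71-fold, and the immediate-early factors Egr1, Nr4a1 and Fos 6.58-fold, 6.46-fold and 6.14-fold. Sall3, the relative of Sall1, was at least 2.81-fold lower (limma adjusted p = 0.000602): it was not well above background on any Th1 array, so the lowest signal above background on those arrays stands in for its level. Irf8, an interferon-regulated partner of PU.1, rose 2.36-fold (limma adjusted p = 8.23e-06).

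**Figure D5:**
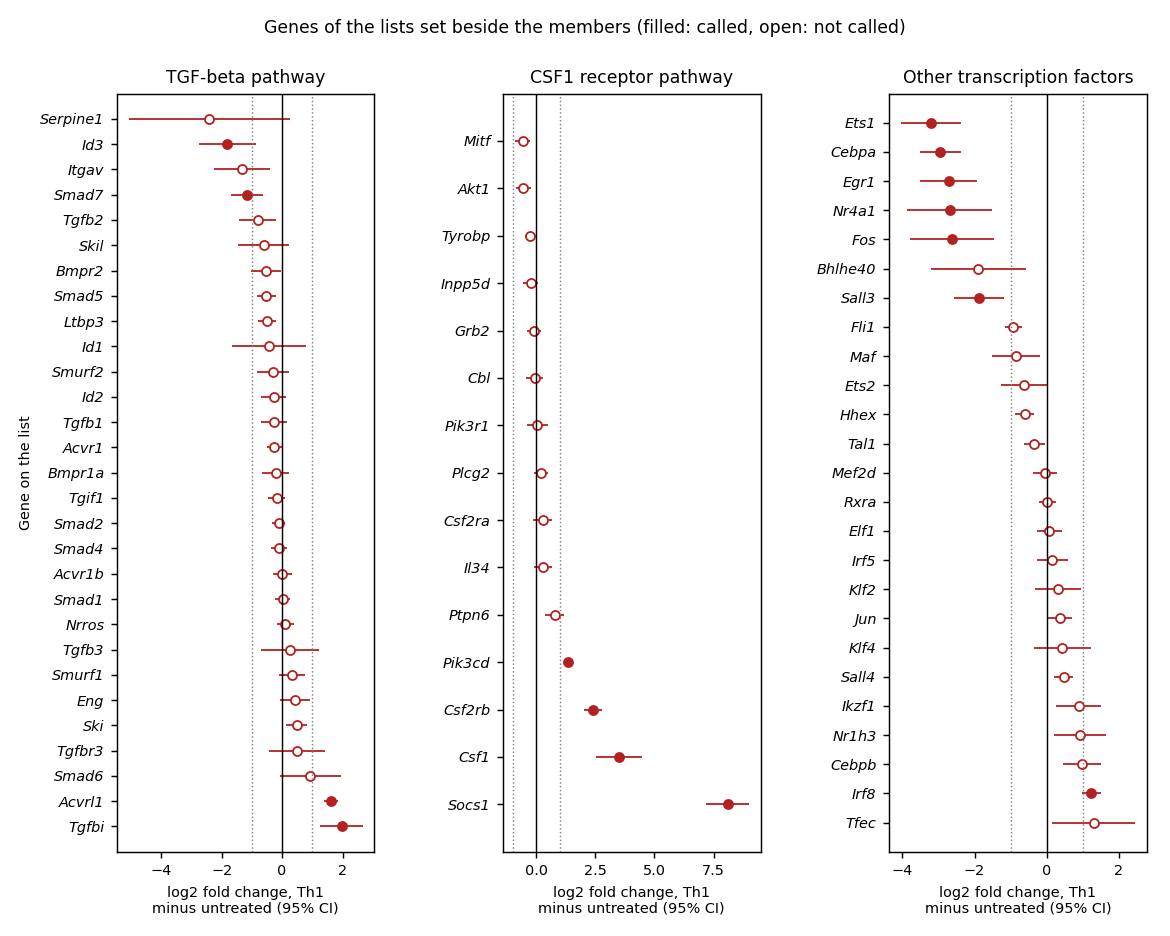
Log2 fold change of Th1-treated against untreated microglia (x axes, with 95% confidence intervals) for the measured genes of the TGF-beta pathway, the CSF1 receptor pathway and other transcription factors (y axes), filled where called. Called genes lie on both sides in the left and right panels and only on the right in the middle one, where Socs1 lies farthest out.

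Of the 4 secreted proteins, Rnase4 and Olfml3, whose start regions are printed above, fell with Th1 supernatant. Rnase4, a secreted ribonuclease, was at 685, 763, 785 and 1040 units with Th1 supernatant, at 9010, 6100, 5100 and 6190 units with Th17 supernatant and at 8160, 10200, 5780 and 6660 units in untreated microglia. Its log2 fold change was -3.22 ± 0.22 (limma adjusted p = 6.31e-07), the lowest adjusted p among the members. Olfml3, an extracellular olfactomedin-like protein, was at 2440, 2980, 2630 and 2370 units with Th1 supernatant, at 12100, 22300, 18800 and 9440 units with Th17 supernatant and at 16000, 27400, 35500 and 9350 units in untreated microglia. Olfml3 fell by 2.91 ± 0.38 on the log2 scale (limma adjusted p = 9.9e-05). The Th1 arrays were close to each other while the other arrays differed by experiment, with 13 and 14 the highest.

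Cst3, the cathepsin inhibitor cystatin C, was at 189000 to 224000 units with Th1 supernatant against 220000 to 281000 units in untreated microglia, and stayed within 2-fold (log2 fold change -0.31, 95% interval -0.54 to -0.07). Sparc, a matrix protein that fibroblasts and astrocytes also make, was at 1470, 791, 1810 and 1600 units with Th1 supernatant, at 1270, 668, 3610 and 1430 units with Th17 supernatant and at 1650, 1040, 4730 and 1470 units in untreated microglia. Its log2 fold change of -0.46 had a 95% interval of -1.64 to 0.72. Experiment 14 held the highest Sparc signal in each group, and its arrays also held the highest fibroblast and mural marker sums of each group, at 315.6, 562.9 and 1064 units for Th1, Th17 and untreated. The part of such cells in the Sparc values was not tested.

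Of the enzymes and lysosomal proteins, Lpcat2 rose and Ltc4s fell. Lpcat2, an acyltransferase that makes platelet-activating factor and membrane phosphatidylcholine, was at 1140, 1740, 1550 and 1470 units with Th1 supernatant, at 319, 670, 602 and 382 units with Th17 supernatant and at 363, 495, 589 and 330 units in untreated microglia. It rose by 1.75 ± 0.26 on the log2 scale (limma adjusted p = 0.000247), and no other array reached the lowest Th1 array. Ltc4s, the synthase of leukotriene C4, was at 1010, 825, 681 and 862 units with Th1 supernatant, at 1650, 1100, 1950 and 1620 units with Th17 supernatant and at 1820, 1920, 1960 and 1760 units in untreated microglia. It fell by 1.16 ± 0.17 (limma adjusted p = 0.000225). Laptm5, a lysosomal membrane protein of blood cells, gave -0.76 ± 0.18 (limma adjusted p = 0.00449). Lgmn, the lysosomal protease legumain, stayed at 304000 to 345000 units with Th1 supernatant against 288000 to 328000 units in untreated microglia, with a log2 fold change of 0.08 (95% interval -0.12 to 0.27).

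Of the 3 cytoplasmic and Golgi proteins, Aif1 rose. Aif1 encodes Iba1, the actin-binding protein by which microglia are stained, and was at 260000, 283000, 276000 and 198000 units with Th1 supernatant, at 112000, 263000, 152000 and 101000 units with Th17 supernatant and at 120000, 121000, 117000 and 90500 units in untreated microglia. Its log2 fold change was 1.18 ± 0.26 (limma adjusted p = 0.00343), between 1.12 and 1.23 in the 4 experiments. The call was lost when Th1 12, Th1 13, Th1 14 or untreated 16 was left out, with limma adjusted p-values between 0.0105 and 0.0115. Golm1, a Golgi membrane protein, was at 3520 to 5200 units with Th1 supernatant against 6730 to 8680 units in untreated microglia, a log2 fold change of -0.87 ± 0.14 (limma adjusted p = 0.000376) short of 2-fold. Bin1, which bends membranes, gave 0.12 (95% interval -0.13 to 0.36).

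With Th17 supernatant no identity gene was called. The counts were 0 fallen and 0 risen of 34 by limma, with 0% of the 19801 genes fallen and 0% risen. At an unadjusted p under 0.05, 0 of the 34 members and 325 of all genes (1.64%) passed, and with the experiment number in the fit the members again numbered 0. The members' median log2 fold change was -0.10, against -0.002 over all genes. For 27 members the 95% interval lay inside the 2-fold range, Tgfbr1 (-0.45, -0.94 to 0.04), Spi1 (-0.09, -0.38 to 0.20) and Mef2c (-0.09, -0.56 to 0.39) among them. The other 7 were Cx3cr1, Tmem119, Gpr34, Olfml3, Sall1, Pmepa1 and Sparc, for which a 2-fold change was not settled. With same-numbered experiments paired, 31 intervals lay inside 2-fold, and only those of Cx3cr1 (-1.56 to 0.90), Gpr34 (-1.21 to 0.07) and Pmepa1 (-1.10 to 0.004) reached past it. Cx3cr1 was lower with Th17 supernatant in all 4 experiments, by 0.25 to 0.43 on the log2 scale, and its fitted change was -0.33 with an interval of -1.86 to 1.20. The fit shares its spread among the 3 groups, so the widths of the Cx3cr1 intervals also reflect the Th1 arrays, at 351 to 5670 units. In all, 6 members were lower in each of the 4 experiments (Cx3cr1, Cst3, Tgfbr1, Pmepa1, Sparc and Ltc4s) and 3 were higher in each (Csf1r, Smad3 and Bin1), none of them called. The share of all genes that kept their sign in the 4 experiments is not given here. Without it, these counts are no result about the members.

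Th1-treated and Th17-treated microglia were also compared directly. The limma fit called 10 members lower and 2 higher with Th1 supernatant than with Th17 supernatant, or 29.4% and 5.88% of the members, while 7.91% of all genes were lower and 6.89% higher. This comparison shares its Th1 arrays with that against untreated microglia. Cx3cr1 (-5.98 ± 0.70, limma adjusted p = 4.6e-05), Rnase4 (-3.0 ± 0.22), Fcrls (-2.52 ± 0.35), Olfml3 (-2.51 ± 0.38), Tmem119 (-2.05 ± 0.48), Mef2c (-2.03 ± 0.22), Stab1 (-1.90 ± 0.24), Bhlhe41 (-1.52 ± 0.29), Tgfbr1 (-1.49 ± 0.22) and Smad3 (-1.15 ± 0.21) were lower on the log2 scale. Lpcat2 (1.63 ± 0.26) and Cmtm6 (1.06 ± 0.24) were higher. Gpr34 (-1.34 ± 0.40, limma adjusted p = 0.0173) was not called in this fit and was called when same-numbered experiments were paired (limma adjusted p = 0.0039).

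Single arrays decided several of these calls. Th17 13 held 263000 units of Aif1, within the range of the Th1 arrays, and 1100 units of Ltc4s, the lowest of its group. Without Th17 13, Aif1 was called higher (1.07) and Ltc4s lower (-1.05) with Th1 than with Th17 supernatant, against 0.79 and -0.89 with all arrays, while Smad3 (-0.97) fell short of 2-fold. The Smad3 call was also lost with the mean of all its probes (-0.70, limma adjusted p = 0.0422). Socs1 on the array Th17 13 was at 468 units, against 42000 to 76800 units on the Th1 arrays. That was the highest value of the Th17 arrays, and untreated 13 was at 148 units. What set Th17 13 apart was not tested. The Tmem119 call was lost without Th1 12, Th1 14, Th17 13 or Th17 14, with limma adjusted p-values of 0.0126 to 0.0169, and also with a normexp background (0.0149) or no filter on dim probes (0.0166). The Cmtm6 call was lost without Th1 12, Th1 14, Th17 13 or Th17 16, with limma adjusted p-values of 0.0131 to 0.015.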

How the data were processed

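The deposited scanner files hold, per the file headers, the processed intensity of each spot as Agilent Feature Extraction 10.7.3.1 wrote it (background-subtracted, 1 colour). The authors also deposited a table of log2 values, which matched log2 intensity scaled at the 75th percentile and centred on each probe's median across the arrays, and served as an alternative. No comparison columns were present. The members and gene lists were chosen with earlier results of these data known.

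Processed intensities without outlier spots (103 to 230 left out per array) were averaged per probe by geometric mean, quantile-normalised, scaled to a 75th percentile of 1500 array units with a floor of 15, and put on the log2 scale. Probes well above background on at least 4 of 12 arrays were kept (24286 of 39429), and the brightest represented its gene, so 19801 genes were tested. RefSeq (GRCm38.p6) named 69.07% of the probes. Signals of different probes are not comparable as levels. The number of arrays limits the precision.

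Group means were fitted over all 12 arrays with limma 3.58.1 in R 4.3.3, with a spread shared by the groups. The Benjamini-Hochberg adjustment was taken across every gene tested. A call needed an adjusted p under 0.01 and over 2-fold. Same-numbered arrays deviated together (correlations of 0.244 to 0.633, against at most 0.123 otherwise), and the labels number the experiments, so the numbers pair the arrays. Every member is named. Members called in any comparison are given by array, and promoters are shown for the 3 largest falls and 2 rises with an entry. Alternatives covered scaling, background, the value table, the floor, the filter on dim probes, several probes, the arrays fitted, experiment or slide as a block, and leaving out each array. A listed gene and a searched motif are not reported here.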

Additional observations from a re-analysis of the deposited data

Results flagged for a closer look

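For 4 of the 102 member and group combinations, 1 of the 4 arrays lay far from the others, with a gap to its nearest neighbour that passed Dixon's critical value for 4 samples on the log2 scale. Chance alone gives about 1 such combination in 20. Sall1 was at 179 units on Th17 16, against 324 to 332 units on the other Th17 arrays. Aif1 was at 90500 units on untreated 16, against 117000 to 121000 units on the other untreated arrays. Laptm5 was at 23700 units on untreated 16, against 35100 to 37200 units. Slc2a5 was at 28.1 units on Th17 14, against 15.5 to 16.7 units, all of them not well above background.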

How the results depend on the processing

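The reported fit was repeated under 23 alternatives, 12 of which left out 1 array each, and no member changed the sign of a call. Of 2343 alternative values of single members, 2309 kept their call, 22 were called only in the reported fit and 12 only in the alternative. The number of members that fell with Th1 supernatant against untreated microglia was 11, and stayed between 10 and 12. Bhlhe41 was the member lost, under a normexp background, at -0.99 on the log2 scale. The number that rose was 2. It was 3 with 75th percentile scaling or the deposited value table, where Cmtm6 joined at 1.19, and 1 with no filter on dim probes, where Aif1 had a limma adjusted p of 0.0111 (0.00027 to 0.0115 over its alternatives). With 1 array left out it was 1 to 3. The number lower with Th1 than with Th17 supernatant was 10, and 8 to 11 over the alternatives, the lowest with a normexp background, where Tmem119 (limma adjusted p = 0.0149) and Bhlhe41 (-0.87) were lost. The number higher with Th1 than with Th17 supernatant was 2. It was 1 with no filter on dim probes, with only the 8 arrays compared and with slide as a block, and 1 to 2 with 1 array left out. The median over the members was -0.72 to -0.38 with 1 array left out.

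With the experiment number as a replicate block, Gpr34 was called lower with Th1 than with Th17 supernatant (-1.34, limma adjusted p = 0.0039), and the pairing changed no other call of a member, though it narrowed the intervals. Over all genes, the normexp background called 955 lower and 1046 higher with Th1 supernatant than in untreated microglia, against 1560 and 1484 in the reported fit. It called 954 lower with Th1 than with Th17 supernatant, against 1566. The normexp background used median signals. The exclusion of spots by pixel variation was not run. The precision of low signals, such as Adgrg1 and Slc2a5, is limited by their closeness to background.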
